A study of Homo sapiens with 8 samples.

Results

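Chromosome 22 held 2414 of the 65646 intervals in the 4 deposited lists of G4 ChIP-seq sites. They were taken by position alone, as every listed interval on this chromosome, and were divided at 24 Mb (hg19) by the centre of the interval. The chromosome and the 24 Mb boundary were chosen by the measured counts of intervals in the 2 cell lines, which differ there. Counts by line and region, and the sharing of sites between the lines, are therefore given as a description without a test. The region from 16 to 24 Mb, which lies within 22q11 and ends shortly after BCR, held 1066 intervals. The region from 24 Mb to the end, which includes the last part of 22q11, held 1348.

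The study mapped G-quadruplexes in untreated cells of 2 established cell lines. K562 was derived from chronic myelogenous leukemia, and HepG2 from hepatocellular carcinoma. Cross-linked, sonicated chromatin was treated with RNase A, precipitated with an antibody against folded G-quadruplexes and sequenced. For each line the samples listed are 3 precipitated libraries and 1 input, which the labels describe as technical replicates, while the deposited lists merge 8 replicates of K562 and 9 of HepG2. The paper describes 3 independent experiments in each line, with 2 to 3 technical replicates of each. The replicate counts of the lists thus do not separate independent from technical replicates. For the high-confidence lists a stretch had to be called in 5 or more of the 8 K562 replicates, or in 6 or more of the 9 of HepG2. For the lower-confidence lists 2 were enough. On chromosome 22 the K562 lists held 290 high-confidence and 975 lower-confidence intervals, of 9205 and 19249 in the genome. The HepG2 lists held 242 of 8805 and 907 of 28387. A list gives only positions, so that depth is unknown, no spread between replicates can be computed, and the 95% Wilson intervals given with shares cover the counting of intervals only. The thresholds are not identical between the lines.

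G-quadruplexes (G4s) are stacks of guanine tetrads that form where runs of guanine lie close together on a strand, and many lie just upstream of transcription start sites (TSSs) in open chromatin. The band 22q11 contains blocks of duplicated sequence between which the DiGeorge/velocardiofacial deletion arises, followed by the immunoglobulin lambda locus and BCR. In chronic myelogenous leukemia a translocation breaks BCR and joins its front part to ABL1, and K562 cells are known to carry the fusion and the neighbouring part of 22q11 in extra copies. Copy number was not measured in these lists, so the number of copies of the DNA and the formation of G4s per copy cannot be told apart.

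The sequences of a few intervals show what the lists contain. They are written 5′ to 3′ on the plus strand of GRCh37, the build of the lists, with complete G4 motifs in capitals. A motif was 4 runs of at least 3 G separated by loops of 1 to 7 bases on either strand, so that a motif on the minus strand appears as runs of C. A loop base could itself be G, so a long run could supply more than 1 of the 4 runs, as at EP300 and in the first BCR motif. For scale, 4.67% of the plain 200 bp windows between 16 and 24 Mb and 4.88% of those past 24 Mb held this motif. Of the 300 bp promoter windows of RefSeq, 25% did so in the genome and 33.5% on chromosome 22. The first set consists of high-confidence HepG2 sites upstream of genes between 16 and 24 Mb that are also in the high-confidence K562 list. SLC25A1 encodes the mitochondrial citrate carrier (chr22:19166315-19166591), DGCR8 a subunit of the microRNA-processing complex (chr22:20067405-20067529), and YPEL1 a small zinc-binding protein (chr22:22090139-22090223).

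SLC25A1: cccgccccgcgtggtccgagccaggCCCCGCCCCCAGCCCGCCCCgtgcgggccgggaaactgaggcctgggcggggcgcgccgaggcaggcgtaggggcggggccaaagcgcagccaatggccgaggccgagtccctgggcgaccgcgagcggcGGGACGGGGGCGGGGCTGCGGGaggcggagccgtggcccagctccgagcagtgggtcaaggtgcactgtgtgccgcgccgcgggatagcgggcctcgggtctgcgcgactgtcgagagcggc

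DGCR8: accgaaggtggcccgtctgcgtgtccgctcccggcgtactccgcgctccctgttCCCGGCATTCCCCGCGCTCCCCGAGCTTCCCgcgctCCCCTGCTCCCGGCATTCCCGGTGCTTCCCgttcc

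YPEL1: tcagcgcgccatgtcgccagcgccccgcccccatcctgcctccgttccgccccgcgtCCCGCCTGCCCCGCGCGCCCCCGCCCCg

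All 3 intervals lay outside annotated exons, with their centres 201 bp, 277 bp and 98 bp upstream of the nearest TSS. SLC25A1 carried 1 motif on each strand, DGCR8 had 2 on the minus strand, and YPEL1 had 1 on the minus strand.

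A high-confidence HepG2 interval that overlapped no interval of either K562 list was in an intron of PPIL2, a cyclophilin-like isomerase (chr22:22031963-22032106). Its motif was on the plus strand near its left end. The wider lower-confidence HepG2 interval around it (chr22:22031942-22032288) did overlap a lower-confidence K562 interval.

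PPIL2 intron: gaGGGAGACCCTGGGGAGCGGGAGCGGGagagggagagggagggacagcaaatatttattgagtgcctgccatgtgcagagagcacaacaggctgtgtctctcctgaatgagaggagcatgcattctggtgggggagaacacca

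For comparison, a site of the same kind past 24 Mb was upstream of EP300, a histone acetyltransferase, in both high-confidence lists (chr22:41487540-41487780). The promoter of PPARA, a nuclear receptor of fatty acid metabolism, was in the high-confidence K562 list and only in the lower-confidence HepG2 list (chr22:46546200-46546363).

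EP300: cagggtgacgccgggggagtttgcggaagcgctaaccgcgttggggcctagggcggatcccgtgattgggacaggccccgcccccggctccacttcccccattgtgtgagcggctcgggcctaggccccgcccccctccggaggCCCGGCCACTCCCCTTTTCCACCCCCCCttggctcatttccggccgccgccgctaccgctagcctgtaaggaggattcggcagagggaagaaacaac

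PPARA: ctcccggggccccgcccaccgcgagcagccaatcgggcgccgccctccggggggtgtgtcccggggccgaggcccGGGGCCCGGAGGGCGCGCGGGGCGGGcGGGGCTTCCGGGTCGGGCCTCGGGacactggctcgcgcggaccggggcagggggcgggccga

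Within BCR the K562 sites were of several kinds. The interval over exon 1 was 665 bp long, had a GC content of 80.8% and held 2 motifs on the minus strand, at chr22:23522595-23522612 and chr22:23522937-23522962. Both lie in annotated 5′ UTR sequence, and they are written as the minus strand reads them, with every G in capitals.

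BCR exon motif 1: GGGcacaGGGcGGGGGGG

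BCR exon motif 2: GGGGcGGGGcGcGccGGGGGGaaGGG

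The last high-confidence K562 interval in the gene (intron 8, chr22:23623999-23624244) and the last lower-confidence one (intron 12, chr22:23631418-23631487) held no complete motif, and are shown because the K562 intervals of the gene end with them. Their GC contents were 61.4% and 48.6%.

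BCR intron 8: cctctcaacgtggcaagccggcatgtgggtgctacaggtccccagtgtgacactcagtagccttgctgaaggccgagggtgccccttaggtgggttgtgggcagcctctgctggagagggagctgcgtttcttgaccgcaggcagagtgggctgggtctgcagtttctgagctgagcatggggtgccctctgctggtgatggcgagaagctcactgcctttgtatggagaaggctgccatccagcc

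BCR intron 12: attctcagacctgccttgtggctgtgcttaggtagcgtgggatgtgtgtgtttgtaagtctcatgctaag

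The first comparison asked how the intervals of the lines were placed along the chromosome. Between 16 and 24 Mb, K562 had 144 high-confidence intervals and HepG2 40, a ratio of 3.6, and the lower-confidence lists held 688 and 194, a ratio of 3.55. Past 24 Mb the order was the opposite, with 146 against 202 high-confidence intervals and 287 against 713 lower-confidence ones. K562 thus supplied 78.3% (71.8 to 83.6) of the high-confidence intervals of the lines in the first region and 42.0% (36.9 to 47.2) in the second. In the lower-confidence lists these shares were 78.0% (75.2 to 80.6) and 28.7% (26.0 to 31.6).

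The regions differ in size, with 7.70 Mb and 27.2 Mb of readable sequence. Per readable Mb, K562 had 18.7 high-confidence intervals between 16 and 24 Mb and 5.37 past it. The corresponding densities of lower-confidence intervals were 89.4 and 10.6. In HepG2 the densities were closer to each other, with 5.19 and 7.43 per Mb in the high-confidence list and 25.2 and 26.2 in the lower-confidence list. The region from 16 to 24 Mb therefore held 49.7% of the K562 high-confidence intervals of the chromosome and 16.5% of those of HepG2. For the lower-confidence lists the shares were 70.6% and 21.4%.

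In steps of 1 Mb, the K562 counts of chromosome 22 were largest in the step from 19 Mb in both kinds of list. No list had an interval in the step from 16 Mb. In the step from 17 Mb, K562 had 4 high-confidence intervals and HepG2 1, and in the step from 18 Mb they had 8 and 6. The lower-confidence counts of these steps were 11 and 1, and 25 and 20. The next step, from 19 Mb, held 45 K562 and 7 HepG2 high-confidence intervals, with 200 and 51 in the lower-confidence lists. The step from 20 Mb held 28 and 6 high-confidence intervals and 189 and 43 lower-confidence ones. From 21 Mb the high-confidence counts were 24 and 9, from 22 Mb 22 and 4, and from 23 Mb 13 and 7. The lower-confidence counts of these 3 steps were 81 and 30, 84 and 23, and 98 and 26. The step from 24 Mb turned the order around, with 10 and 19 high-confidence intervals and 21 and 55 lower-confidence ones.

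**Figure D1:**
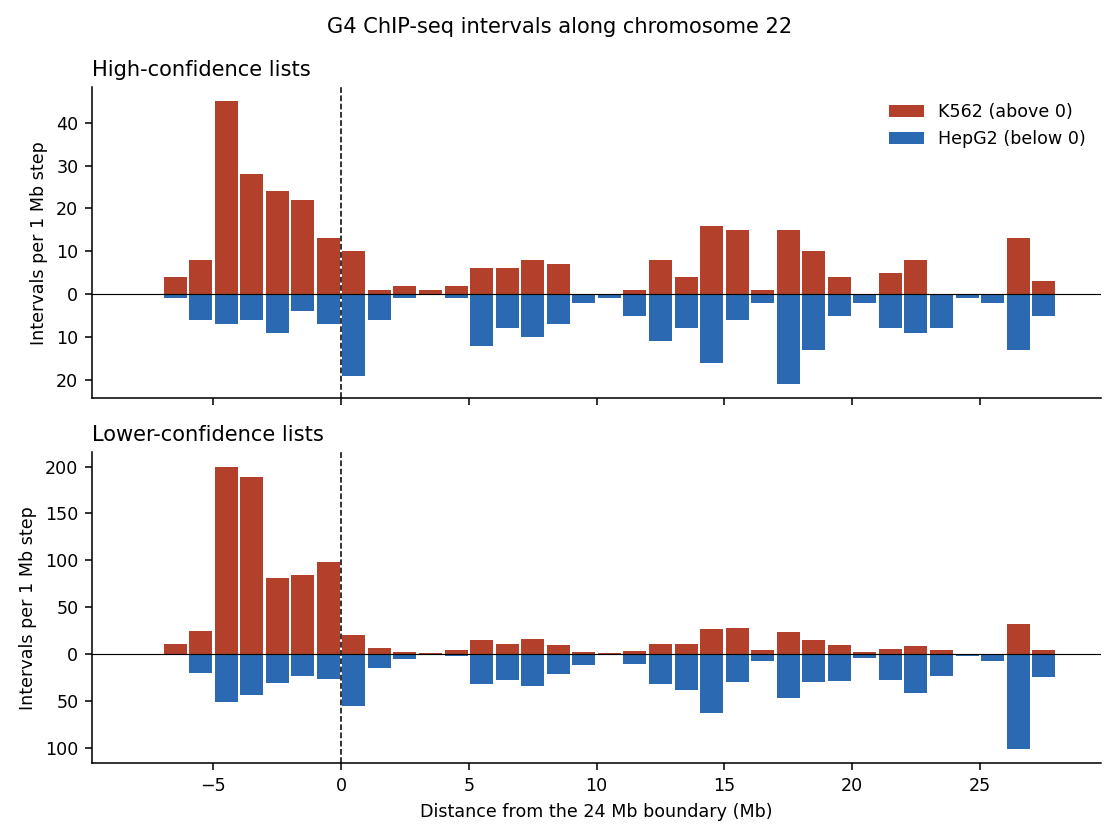
Intervals per 1 Mb step of chromosome 22 (vertical axis, K562 above 0 and HepG2 below 0) by distance of the step from the 24 Mb boundary in Mb (horizontal axis, dashed line at 0), for the high-confidence lists (top) and the lower-confidence lists (bottom). The tall K562 bars, with up to 45 and 200 intervals, lie in the 5 steps left of the dashed line, whereas right of it no K562 bar exceeds 16 and 32.

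Among the 2215 steps of 1 Mb in the genome with an interval in any list, the steps from 19 and 20 Mb held the most and the second most lower-confidence K562 intervals, and the steps from 23, 22 and 21 Mb were at ranks 6, 12 and 14. The median of these 2215 steps was 4 such intervals. For HepG2 the same 5 steps held 23 to 51 lower-confidence intervals, against a median of 6, and their highest rank was 98. K562 had more intervals than HepG2 in all 7 steps with intervals between 16 and 24 Mb, in both kinds of list. Past 24 Mb it had more in 4 of 28 steps of the high-confidence lists and in 2 of 28 steps of the lower-confidence lists.

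Steps with at least 5 intervals of the lines together were read for a 2-fold difference. In the high-confidence lists K562 had at least 2 times as many intervals in 5 of 7 steps between 16 and 24 Mb and in 1 of 19 steps past it, against 16.5% of 1066 such steps in the genome. HepG2 had at least 2 times as many in 0 of 7 and 5 of 19 steps, against 15.9% in the genome. In the lower-confidence lists K562 reached that fold in 6 of 7 and 1 of 25 steps, with a genome share of 6.87%. HepG2 did so in 0 of 7 and 18 of 25 steps, with a genome share of 32.9%. These counts use the contrast by which the region was chosen, so nothing further is read from them. The single high-confidence step past 24 Mb with this K562 excess began at 39 Mb and held 15 and 6 intervals.

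On a finer scale of 100 kb the K562 intervals were clustered. The 100 kb from 20.1 Mb, which hold RANBP1 and ZDHHC8, contained 68 lower-confidence K562 intervals and 11 of HepG2. The 100 kb from 19.7 Mb, with SEPTIN5, GP1BB and TBX1, contained 59 and 6, those from 20.2 Mb 50 and 13, and those from 19.9 Mb 46 and 20. The step from 20.4 Mb contained none of either line. The median distance between neighbouring lower-confidence K562 intervals was 1178 bp between 16 and 24 Mb and 35978 bp past it. In HepG2 it was 8141 bp and 9040 bp. Such close intervals are not independent sites, and a single broad enrichment can be listed as several pieces.

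BCR is transcribed from the plus strand at chr22:23521891-23660224, and its canonical transcript has 23 exons. K562 had 25 lower-confidence and 6 high-confidence intervals within the gene, and HepG2 had 2 and 1. The K562 high-confidence intervals lay over exon 1, at 4 places in intron 1 and at 1 place in intron 8. The HepG2 high-confidence interval was also in intron 1 (chr22:23559006-23559273), where K562 had no overlapping interval in either list.

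The last K562 interval of the gene ended in intron 12, 216 bp before exon 13. The remaining 28737 bp of BCR contained no K562 interval of either list, whereas HepG2 had a lower-confidence interval there, in intron 14 (chr22:23632737-23632906). The next lower-confidence K562 interval started 113242 bp further along, at chr22:23744730-23745095, and only 1 more followed before 24 Mb (chr22:23864103-23864209). Over that same stretch, from the end of the last K562 interval in BCR to 24 Mb, HepG2 had 15 lower-confidence and 3 high-confidence intervals.

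**Figure D2:**
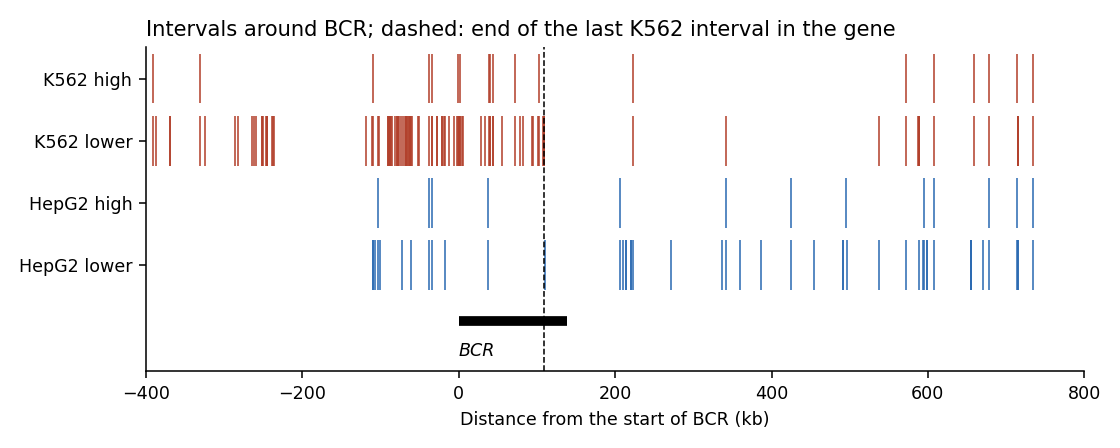
Each vertical line is the centre of 1 interval, in 4 rows for the lists of K562 (red) and HepG2 (blue), by distance from the start of BCR in kb, with the gene as a black bar and the end of the last K562 interval in the gene as a dashed line. In the 250 kb before the dashed line K562 had 70 lower-confidence intervals and in the 250 kb after it 2, whereas HepG2 had 11 on each side. The line is set by the K562 intervals themselves, so the K562 difference is partly built in.

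Windows on both sides of this end were counted because the rule for the regions reaches BCR. Within 250 kb, K562 had 70 lower-confidence intervals before it and 2 after it, and HepG2 had 11 and 11. Within 500 kb the counts were 90 and 9 in K562 and 11 and 26 in HepG2, and within 1000 kb they were 117 and 20 in K562 and 16 and 51 in HepG2. In the high-confidence lists K562 had 10 before and 1 after within 250 kb, and HepG2 had 4 and 2. The position was singled out after the intervals were seen. It is defined as the place where the K562 intervals of the gene stop, so a smaller K562 count just after it is partly built in. The break of the translocation in these cells was not tested.

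The intervals nearest to the 24 Mb boundary differed between the lines as well. The last high-confidence K562 interval before it was 255161 bp away, at chr22:23744793-23744887, and the first after it was 93384 bp away, upstream of the zinc finger gene ZNF70 (chr22:24093357-24093413). The HepG2 high-confidence intervals nearest to the boundary were 52712 bp before it, between genes (chr22:23947192-23947386), and 17788 bp after it, in an intron upstream of the TSS of RGL4, a gene of the Ral guanine nucleotide exchange family (chr22:24017705-24017872). The lower-confidence intervals lay 135845 bp before and 59573 bp after the boundary in K562, and 23859 bp before and 13023 bp after it in HepG2. The last of these before the boundary was in an intron near the TSS of DRICH1.

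The immunoglobulin lambda cluster, in which B cells assemble the light chain gene, was taken from its first to its last annotated gene (chr22:22380474-23265206, 87 annotated genes and gene segments). K562 had 50 lower-confidence and 12 high-confidence intervals over these 885 kb, and HepG2 had 7 and 0. Some of the high-confidence K562 intervals were at promoters of other genes within this span. These were ZNF280B (chr22:22862881-22863286) and PRAME (chr22:22900024-22900215 and chr22:22901486-22901859). Neither line is of the B lineage.

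Next, the sharing of sites between the lines was described. Of the K562 high-confidence intervals between 16 and 24 Mb, 17.4% (12.04 to 24.4, 25 of 144) overlapped a HepG2 high-confidence interval by at least 1 bp, against 60.3% (52.2 to 67.8, 88 of 146) past 24 Mb. In the other direction, 67.5% (52.0 to 79.9, 27 of 40) of the HepG2 intervals in the first region overlapped one of K562, and 43.1% (36.4 to 49.96, 87 of 202) in the second. With 144 intervals against 40, most K562 intervals of the first region could have no partner in HepG2. With the lower-confidence HepG2 list as partner, 38.2% of the K562 high-confidence intervals in the first region had a partner and 82.2% in the second. The overlap over the whole lists is not set beside these shares, so they compare the regions with each other only.

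Position against genes and sequence were not among the values that chose the region. The regions were compared for them with two-sided Fisher's exact tests within a list, adjusted by the Benjamini-Hochberg method over the 4 lists. Neighbouring intervals are not replicates of a condition, and the K562 shares are taken over the intervals whose counts chose the region. The shares are thus not independent of that choice, and the tests describe these lists only. A promoter here means the stretch of 1 kb before any TSS in the annotation. The share of protein-coding genes with a high-confidence K562 interval upstream was larger between 16 and 24 Mb (57.8%) than past it (32.8%). In both K562 lists, however, a smaller share of the intervals between 16 and 24 Mb touched a promoter. In the lower-confidence list 26.7% (23.6 to 30.2, 184 of 688) did so, against 72.1% (66.7 to 77.0, 207 of 287) past 24 Mb, an odds ratio of 0.141 (0.104 to 0.192) with an adjusted p of 5.1e-39. In the high-confidence list the shares were 63.2% (55.1 to 70.6) and 83.6% (76.7 to 88.7), an odds ratio of 0.338 (0.194 to 0.587) with an adjusted p of 0.000207.

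In HepG2 the promoter shares did not pass the threshold in either list. In the high-confidence list they were 65.0% (49.5 to 77.9) and 55.4% (48.6 to 62.1), an odds ratio of 1.49 (0.736 to 3.02) with an adjusted p of 0.397 in Fisher's exact test. In the lower-confidence list they were 36.1% (29.7 to 43.1) and 37.2% (33.7 to 40.8), an odds ratio of 0.954 (0.686 to 1.33) with an adjusted p of 0.802 in the exact test. The odds ratio of K562 divided by that of HepG2 was 0.148 (0.0941 to 0.232) in the lower-confidence lists and 0.226 (0.0923 to 0.555) in the high-confidence lists. These ratios describe the merged lists, their intervals (normal approximation for the log of the ratio) count clustered intervals as if they were independent, and a difference between the lines was not tested over replicates.

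**Figure D3:**
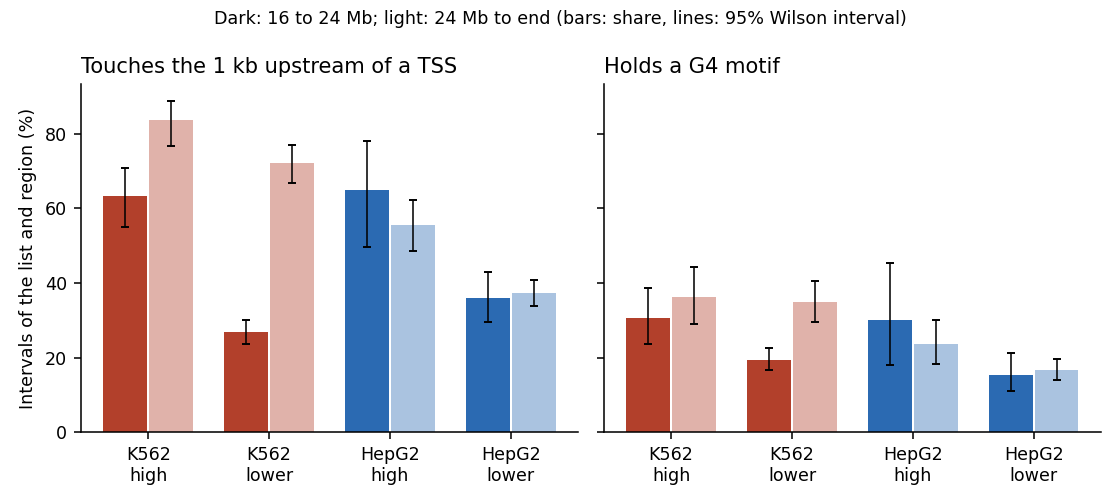
Share of intervals in percent that touch the 1 kb upstream of a TSS (left) and that hold a complete G4 motif (right), for the 4 lists, between 16 and 24 Mb (dark bars) and from 24 Mb to the end (light bars), with 95% Wilson intervals. The dark K562 bars for promoters, at 63.2% and 26.7%, stand below the light ones at 83.6% and 72.1%, and the HepG2 pairs overlap in their intervals.

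Complete G4 motifs were less frequent in the lower-confidence K562 intervals between 16 and 24 Mb. There 19.5% (16.7 to 22.6, 134 of 688) held a motif, against 34.8% (29.6 to 40.5, 100 of 287) past 24 Mb, an odds ratio of 0.452 (0.333 to 0.615) with an adjusted p of 2.67e-06. In the high-confidence K562 list the shares were 30.6% and 36.3%, with an odds ratio of 0.772 (0.473 to 1.26, adjusted p of 0.567 in the exact test). In HepG2 they were 30% and 23.8% in the high-confidence list (odds ratio 1.38, 0.650 to 2.91, adjusted p of 0.567 in the exact test) and 15.5% and 16.7% in the lower-confidence list (odds ratio 0.913, 0.590 to 1.41, adjusted p of 0.744). The ratio of the odds ratios between the lines was 0.495 (0.291 to 0.845) in the lower-confidence lists and 0.562 (0.229 to 1.37) in the high-confidence lists, with the same limit.

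Motif and promoter were related. Among lower-confidence K562 intervals that touched a promoter, 35.9% (29.3 to 43.0) held a motif between 16 and 24 Mb and 40.6% (34.1 to 47.4) past it. Among those that touched none, 13.5% (10.8 to 16.8, 68 of 504) and 20% (12.7 to 30.05, 16 of 80) did. In both classes the share was lower between 16 and 24 Mb, with overlapping Wilson intervals, and a difference within a class was not tested. Intervals away from promoters made up 504 of the 688 between 16 and 24 Mb. Whether this accounts for the motif shares was not tested. In the lower-confidence HepG2 list the shares were 25.7% and 30.6% at promoters and 9.68% and 8.48% elsewhere.

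By the centre of the interval, the largest class of lower-confidence K562 intervals between 16 and 24 Mb was introns, with 259 of 688 (37.6%). The promoter class held 169 (24.6%), sequence between genes 145 (21.1%), coding exons 40, noncoding exons 39, 3′ UTRs 27 and 5′ UTRs 9. Past 24 Mb the promoter class held 200 of 287 (69.7%) and introns 43 (14.98%). In HepG2 the promoter and intron classes were of similar size in both regions, with 69 and 60 of 194 intervals and with 251 and 254 of 713.

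**Figure D4:**
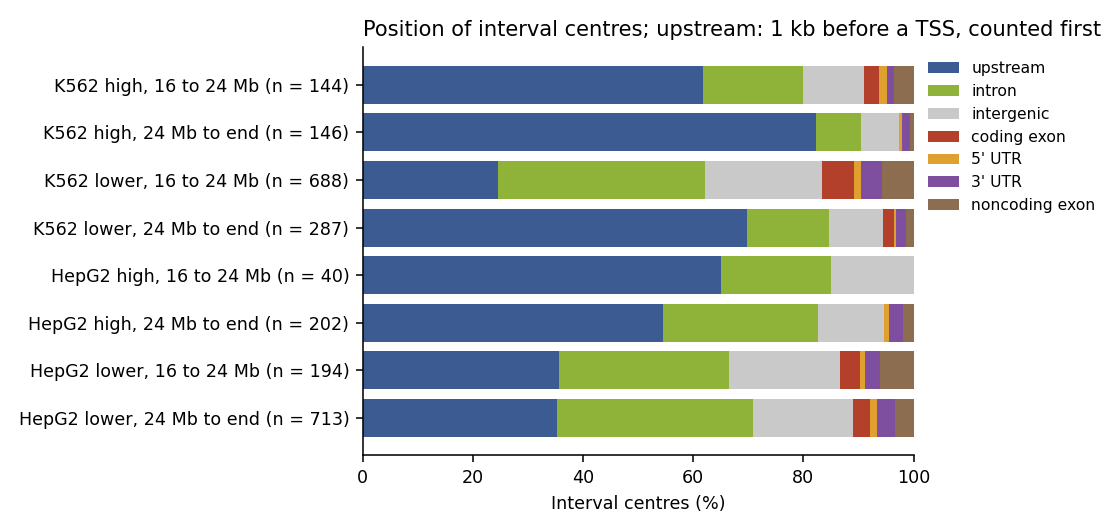
Interval centres in percent of each list and region (horizontal bars, 8 in all) by their position against genes, with the 1 kb upstream of a TSS counted first. The lower-confidence K562 intervals between 16 and 24 Mb have 24.6% of centres upstream of a TSS, the smallest such share, against 69.7% from 24 Mb to the end.

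Many of the lower-confidence K562 intervals between 16 and 24 Mb had no high-confidence core. Of the 688, 563 (81.8%) held no high-confidence interval, against 148 of 287 (51.6%) past 24 Mb. In HepG2 these were 157 of 194 (80.9%) and 522 of 713 (73.2%). The 563 K562 intervals had a median width of 143 bp, 13.3% held a motif and 18.7% touched a promoter. The 125 with a high-confidence core had a median width of 374 bp, and 47.2% of them held a motif and 63.2% touched a promoter.

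High-confidence K562 intervals had a larger median width between 16 and 24 Mb than past it. It was 217 bp (181 to 244, order-statistic 95% interval) against 174.5 bp (164 to 189), and these intervals overlapped in part. Their median GC content was 66.9% (65.1 to 68.9) and 71.1% (69.5 to 73.0). In the lower-confidence K562 list the order of widths was the opposite, with 169 bp and 202 bp, and GC content was 63.5% and 68.6%. HepG2 high-confidence intervals had median widths of 148.5 bp and 162.5 bp, and lower-confidence ones 146 bp and 165 bp.

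The widest high-confidence K562 interval between 16 and 24 Mb covered 899 bp upstream of YPEL1 (chr22:22089811-22090709), held 4 motifs and overlapped the HepG2 site whose sequence is printed above. Past 24 Mb the widest was 568 bp, upstream of both LMF2 and the condensin subunit gene NCAPH2 (chr22:50946081-50946648), with 8 motifs and a GC content of 80.1%. In HepG2 the widest was 458 bp, between genes 58394 bp from IGLL1 (chr22:23863803-23864260), and past 24 Mb 525 bp at the promoter of GTPBP1, a GTP-binding protein (chr22:39101428-39101952). The last one held 0 motifs and had a GC content of 53.3%.

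At the level of genes, 102 protein-coding genes had a TSS between 16 and 24 Mb and 348 past it. In the first region 59 genes (57.8%, 48.1 to 67.0) had a high-confidence K562 interval within 1 kb upstream of a TSS and 29 (28.4%, 20.6 to 37.8) one of HepG2. In the second region the counts were 114 (32.8%) and 115 (33.0%). Over all 20176 protein-coding genes the shares were 34.5% in K562 and 29.6% in HepG2. All 29 genes of the first region with a HepG2 interval also had one of K562, and no gene had a high-confidence HepG2 interval without one of K562. Of the other K562 genes, 19 had a lower-confidence HepG2 interval and 11 had none. A further 6 genes had a lower-confidence K562 interval and none of HepG2, and 1 had the reverse. Past 24 Mb, 81 genes had both. There 26 genes had a high-confidence K562 interval with a lower-confidence HepG2 one, and 7 had a high-confidence K562 interval and none of HepG2. In the other direction, 29 genes had a high-confidence HepG2 interval with a lower-confidence K562 one, and 5 had a high-confidence HepG2 interval and none of K562. A further 33 genes had a lower-confidence HepG2 interval and none of K562, and 8 had a lower-confidence K562 interval and none of HepG2. The share of all protein-coding genes in each of these combined classes is not given, so nothing further is read from these counts.

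**Figure D5:**
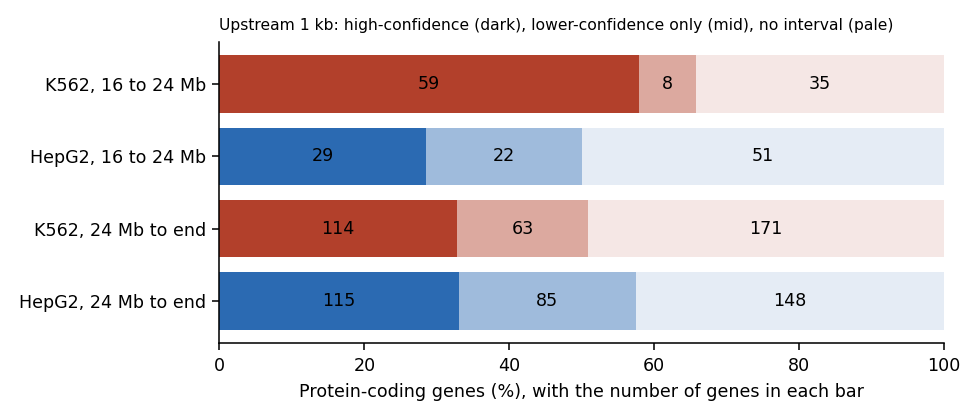
Protein-coding genes of chromosome 22 in percent by region and line, divided by the interval found within 1 kb upstream of a TSS (high-confidence, lower-confidence only, or none), with the number of genes in each part of a bar. Between 16 and 24 Mb the high-confidence part holds 59 genes in K562 and 29 in HepG2, and from 24 Mb to the end it holds 114 and 115.

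The 11 genes between 16 and 24 Mb with a high-confidence K562 interval and no HepG2 interval upstream included 2 read-through gene models without a symbol. The others were DGCR6, a gene of the DiGeorge critical region, CLTCL1, a clathrin heavy chain, SEPTIN5, a septin, the platelet receptor gene GP1BB, RTN4R, which encodes the Nogo receptor, the zinc finger gene ZNF74, UBE2L3, a ubiquitin-conjugating enzyme, PRAME, a tumour antigen, and BCR. SEPTIN5 held 7 high-confidence and 10 lower-confidence K562 intervals and no HepG2 interval. RTN4R held 26 lower-confidence K562 intervals within the gene and 7 of HepG2, UBE2L3 9 and 0, CLTCL1 5 and 0, and PRAME 4 and 0. SEPTIN5 and GP1BB overlap, so their intervals are partly the same.

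The genes of the 22q11.2 deletion region were described as a list of 43. For this list and those that follow, the shares over all protein-coding genes are 34.5% in K562 and 29.6% in HepG2. Of these, 34 had a high-confidence K562 interval upstream and 17 one of HepG2, and all 17 were among the 34. The 17 included the 2 promoters printed above, CDC45, a replication helicase subunit, RANBP1, a regulator of Ran, the Mediator subunit gene MED15, the adaptor gene CRKL, and the lipid kinase gene PI4KA. Among genes with a high-confidence K562 interval and only a lower-confidence one of HepG2 were TBX1, the transcription factor gene linked to the heart defects of the deletion, HIRA, a histone chaperone, TXNRD2, a mitochondrial thioredoxin reductase, ARVCF, a catenin, ZDHHC8, a palmitoyltransferase, and LZTR1, a ubiquitin ligase adaptor. Neither line had an interval upstream of PRODH, proline dehydrogenase, or SCARF2, and SERPIND1, heparin cofactor, had a lower-confidence one in HepG2 and none in K562. Within the 43 genes lay 295 lower-confidence K562 intervals and 71 of HepG2, with 55 and 10 high-confidence ones.

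Single genes of the deletion region held many intervals. ARVCF had 40 lower-confidence K562 intervals and 13 of HepG2 within 46.9 kb. These were the most of any gene counted for the step from 20 Mb in both lines, although most of ARVCF lies before 20 Mb. GNB1L, a WD-repeat gene, had 17 and 4, ZDHHC8 18 and 2, TXNRD2 16 and 2, TANGO2 16 and 1, TBX1 15 and 2, MED15 15 and 2 and LZTR1 14 and 2. MICAL3, an actin-oxidising enzyme nearer to the centromere, had 5 and 4. PI4KA had 5 in each line.

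The 22 genes between the deletion region and BCR had a high-confidence K562 interval upstream in 14 cases and one of HepG2 in 6. The shares over all protein-coding genes were 34.5% and 29.6%. The genes with both included YDJC, SDF2L1, YPEL1, RSPH14 and the Rab gene RAB36. RSPH14 held 33 lower-confidence K562 intervals and 8 of HepG2, and GNAZ, a G protein alpha subunit gene inside it, held 27 and 5. PPM1F, a protein phosphatase, held 13 and 2, and TOP3B, a topoisomerase, 10 and 2. Neither list of either line had an interval upstream of HIC2, VPREB1 or IGLL5. In the pericentromeric list of 16 genes, 5 had a high-confidence K562 interval and 4 one of HepG2, and IL17RA and ATP6V1E1 had both.

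Just past 24 Mb the lines had equal numbers of genes with a high-confidence interval upstream, but not of intervals. Of 22 genes there, 9 had a high-confidence K562 interval upstream and 9 one of HepG2, with 7 in both, among them MIF, a cytokine, CABIN1, a calcineurin inhibitor, and SNRPD3, a spliceosome protein. SMARCB1, a subunit of the SWI/SNF complex, and SUSD2 had a high-confidence HepG2 interval and a lower-confidence K562 one, and ZNF70 had the reverse. DERL3, an endoplasmic reticulum degradation factor, had a high-confidence K562 interval and none of HepG2 upstream. Within these 22 genes lay 11 lower-confidence K562 intervals and 35 of HepG2, with 5 and 12 high-confidence ones. In the list of 34 genes from further along the arm, 16 had a high-confidence K562 interval and 19 one of HepG2, with 14 in both, such as XBP1, NF2, ATF4 and EP300. FBLN1, an extracellular matrix gene, had a high-confidence HepG2 interval and none of K562, and SOX10, a neural crest transcription factor, had none in either line upstream.

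The fullest steps past 24 Mb differed between the lines. Genes are named here by a high-confidence interval within 1 kb upstream of a TSS, and intervals inside a gene are not counted. The step from 38 Mb had 16 high-confidence intervals in each line. Upstream intervals were found at GGA1, ANKRD54, PLA2G6 and MAFF in both, at SH3BP1, LGALS1, TRIOBP and MICALL1 in K562 only, and at POLR2F in HepG2 only. HepG2 did have high-confidence intervals in introns of TRIOBP and MICALL1. The step from 39 Mb, with 15 and 6, had CBX6, MIEF1, ATF4 and RPS19BP1 in both, JOSD1, SUN2, CBX7 and TAB1 in the high-confidence list of K562 only, and GTPBP1 and RPL3 in that of HepG2 only. The step from 41 Mb, with 15 K562 and 21 HepG2 intervals, had MRTFA, RBX1, EP300, L3MBTL2, RANGAP1 and 5 more genes in both, and ST13, XPNPEP3 and PHF5A in the high-confidence list of HepG2 only.

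Compared with all other chromosomes, chromosome 22 as a whole had a smaller share of promoter-touching intervals in every list. The shares were 73.4% (68.1 to 78.2) against 81.4% in the high-confidence K562 list, with an adjusted p of 0.0013 in Fisher's exact test, and 40.1% (37.1 to 43.2) against 64.9% in the lower-confidence one, with an adjusted p of 3.43e-52. In HepG2 they were 57.0% (50.7 to 63.1) against 70.0%, and 36.9% (33.9 to 40.1) against 47.1%, with adjusted p of 3.59e-05 and 2.52e-09 in the same test. In K562 the smaller share was limited to 16 to 24 Mb, with 63.2% and 26.7%. Past 24 Mb the K562 shares of 83.6% and 72.1% lay above those of the other chromosomes. The HepG2 shares lay below those of the other chromosomes in both regions. The share with a motif was lower than elsewhere in the lower-confidence K562 list, at 24% (21.4 to 26.8) against 29.7% (adjusted p of 0.000448 in the exact test). Within that list it was 19.5% between 16 and 24 Mb and 34.8% past 24 Mb. In the other 3 lists the motif share did not pass the threshold, with odds ratios of 1.04 (0.813 to 1.33), 1.28 (0.949 to 1.72) and 0.874 (0.731 to 1.04) in the high-confidence K562, the high-confidence HepG2 and the lower-confidence HepG2 list. These tests count clustered intervals as if they were independent. Of the 975 lower-confidence K562 intervals, 688 lay between 16 and 24 Mb, the region chosen by its counts. The p-values therefore describe these lists only. The duplicated blocks of 22q11 can receive reads from more than 1 place, and their part in these counts was not tested.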

How the data were processed

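The deposited lists hold interval positions in bp on hg19. According to the study's methods, the authors trimmed and aligned reads, removed duplicates, called peaks in every replicate (MACS2, q-value below 0.05), and intersected the replicates by bedtools multiinter. The deposited files give neither depth nor peak height. The labels list 3 G4 ChIP libraries and 1 input per line, and no single library could be analysed.

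Intervals were assigned to regions by their centre and compared on GRCh37 with GENCODE release 44 lifted to that build. Starts were converted to positions counted from 1. Promoters were the 1 kb upstream of any TSS. Overlap meant at least 1 bp. Motifs were 4 runs of 3 or more G, with 1 to 7 bases of any kind, G included, between runs. Shares have Wilson intervals, medians have order-statistic intervals, and regions were compared with two-sided Fisher's exact tests and Benjamini-Hochberg adjustment over 4 lists. Overlap, motif and test functions were tested on simulated data.

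The members, gene lists and rules were chosen with earlier results of these data known. Genes named are those of 5 fixed lists, those with a high-confidence interval of 1 line and none of the other upstream, those at the widest intervals and nearest to 24 Mb, and those with most intervals in the steps. The end of the last K562 interval in BCR, the lambda cluster and the 100 kb steps were chosen after seeing the values. Some genes and 1 sequence that these rules take in are not reported here. Alternatives covered overlap, boundary, width, merging, promoter and motif definitions. The tools were samtools 1.23.1 and Python 3.11.15 with matplotlib 3.10.9, pysam 0.24.0, scipy 1.17.1 and numpy 2.4.6.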

Additional observations from a re-analysis of the deposited data

Results flagged for a closer look

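The contrast between 16 to 24 Mb and the remainder of chromosome 22 was unlike in the merged lists of the lines in 3 measures, by an interval around the ratio of odds ratios that counts every listed interval as independent. The odds ratio of touching a promoter in K562, divided by that in HepG2, was 0.148 in the lower-confidence lists and 0.226 in the high-confidence lists. For complete G4 motifs in the lower-confidence lists it was 0.495. Each line entered with 1 merged list per threshold, K562 intervals in this region were closely spaced, and the region was selected for its K562 counts. A difference between the lines was therefore not tested over replicates, and the ratios are descriptions of these lists.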

How the results depend on the processing

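Of 132 alternative values, 113 kept their direction and side of the threshold or stayed within their interval, 17 moved and 2 changed sign. The share of K562 between 16 and 24 Mb was 84.5% (high-confidence) and 82.4% (lower-confidence) when covered bases were counted. For the lower-confidence lists it was 74.0% with the boundary at 25 Mb and 84.2% after division by the list total outside chromosome 22. Past 24 Mb it was 32.1% by covered bases, 34.3% with the boundary at 23 Mb and 37.7% after that division. The share of K562 high-confidence intervals between 16 and 24 Mb with a partner was 7.64% when 50% of the interval had to be covered, 25% with a partner within 500 bp and 38.2% with the lower-confidence HepG2 list, which gave 82.2% past 24 Mb. With the lower-confidence K562 list, 58.4% of the HepG2 intervals past 24 Mb had a partner. Genes with a lower-confidence interval upstream were 50.9% in K562 past 24 Mb, and 50% and 57.5% in HepG2 in the first and second region. The difference in motif share of the lower-confidence HepG2 list turned to 0.0525 percentage points with the boundary at 25 Mb, and that in promoter share to 1.42 with the boundary at 23 Mb; neither passed the threshold at any setting. With intervals under 50 bp left out, an alternative chosen after seeing the data, median widths of lower-confidence intervals were 185 bp (K562, first region) and 182 bp (HepG2, second region). The cause of these changes was not tested beyond the construction of each alternative. No paired analysis was possible because each line has 1 merged list per threshold. Depth, copy number and mappability could not be examined from positions.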
